A study of Mus musculus with 4 samples.

Results

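Mature neutrophils of mouse bone marrow are described here from single-cell RNA counts of 6 female mice. A cell was taken as a mature neutrophil when at least 3 of the genes Mmp8, Mmp9, Retnlg, Ly6g and Fpr1 had at least 1 unique molecular identifier (UMI, a tag that counts 1 RNA molecule) and when Elane had at most 1. Before that, cells needed at least 500 genes, at least 1000 gene UMIs, at most 10% mitochondrial UMIs, and at least 80% of their hashtag UMIs from 1 hashtag. Of 37717 kept cells, 3846 met the rule. The rule reads the same counts that are described below, so the levels of its genes are a description of the choice and no result.

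All mice were 6 weeks old and carried Tppp3CreER, a Cre recombinase that tamoxifen activates in cells using the Tppp3 promoter, with an LSLTdTomato reporter that Cre switches on. Of these, 2 mice received tamoxifen on postnatal days 0 and 3, and 2 received tamoxifen and rapamycin on those days. The other 2 received rapamycin alone on postnatal day 30 and no tamoxifen, and are called late rapamycin here. The series description also speaks of isolation after 2 weeks. The marrow material is labelled as Lin-Sca+Kit+ cells, Lin-Sca-Kit+ cells and whole bone marrow, so a share of kept cells is not the size of a compartment in the animal. Cells of 3 mice, 1 per treatment, were tagged with different hashtag antibodies and run together in droplets, once on each of 2 days. The number of a mouse is its processing day. The reporter and Cre were not among the measured features. Treatments follow the deposited hashtag table, whose control entry was read as late rapamycin, the only treatment left. The sample labels number the tamoxifen and the tamoxifen with rapamycin mice in the opposite way. If those are hashtag numbers, both treatments are exchanged: every difference between them below changes sign, and each comparison with late rapamycin belongs to the other one.

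Neutrophils arise in the marrow from granulocyte progenitors and make their granules in a fixed order as they mature. Proteases of primary granules such as elastase and myeloperoxidase come first, then the secondary granule proteins lactoferrin, cathelicidin and neutrophilic granule protein, then the gelatinases of tertiary granules, and last the receptors of secretory vesicles and the cell surface. Mature cells no longer divide, carry little RNA, and wait in the marrow until signals through CXCR2 and the G-CSF receptor call them into the blood. Rapamycin inhibits mTORC1, a kinase complex that drives protein synthesis and growth.

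The sequences just upstream of 4 genes are shown because these genes mark or dominate the cells: Mmp8 (collagenase of neutrophil granules) and Retnlg (a secreted resistin-like protein) are rule markers, and S100a8 and S100a9 (the subunits of calprotectin) gave the most UMIs. Each run is the 250 bases before the start site, 5′ to 3′ on the gene's strand, from the RefSeq promoter table with build GRCm38.p6. The table listed all of these except Mmp9, which is named only. The positions are chr9:7558179-7558428 on the plus strand for Mmp8, chr16:48872358-48872607 on the plus strand for Retnlg, chr3:90668821-90669070 on the plus strand for S100a8, and chr3:90695722-90695971 on the minus strand for S100a9. Capitals mark matches on either strand to TTNNGCAA, the core of the C/EBP motif, or to GAGGAAGT, the core of the PU.1 motif. C/EBP and PU.1 factors are the best known regulators of granulocyte genes.
Mmp8: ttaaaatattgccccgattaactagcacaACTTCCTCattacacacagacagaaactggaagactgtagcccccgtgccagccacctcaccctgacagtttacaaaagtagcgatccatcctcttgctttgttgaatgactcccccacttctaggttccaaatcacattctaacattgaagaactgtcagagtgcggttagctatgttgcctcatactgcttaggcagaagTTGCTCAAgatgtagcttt
Retnlg: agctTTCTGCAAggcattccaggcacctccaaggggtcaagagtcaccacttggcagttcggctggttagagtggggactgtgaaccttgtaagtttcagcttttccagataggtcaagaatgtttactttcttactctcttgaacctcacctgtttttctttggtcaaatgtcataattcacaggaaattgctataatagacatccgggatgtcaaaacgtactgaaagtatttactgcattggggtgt
S100a8: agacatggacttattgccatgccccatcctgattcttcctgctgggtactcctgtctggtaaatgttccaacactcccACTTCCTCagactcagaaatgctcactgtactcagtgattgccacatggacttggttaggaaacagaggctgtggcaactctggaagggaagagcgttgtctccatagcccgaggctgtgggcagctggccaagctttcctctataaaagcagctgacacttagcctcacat
S100a9: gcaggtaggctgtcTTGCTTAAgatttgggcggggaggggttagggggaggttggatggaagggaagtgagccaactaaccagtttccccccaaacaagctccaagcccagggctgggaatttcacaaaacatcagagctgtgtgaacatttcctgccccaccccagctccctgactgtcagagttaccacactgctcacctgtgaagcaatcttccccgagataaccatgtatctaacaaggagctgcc

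The Mmp8 run held 1 C/EBP match, beginning at position -19 from the start site, and 1 PU.1 match, at -221. The Retnlg run held a C/EBP match at -246, the S100a8 run a PU.1 match at -172, and the S100a9 run a C/EBP match at -236. Among all 32851 promoter runs of 250 bases, 9.56% held the C/EBP letters and 2.44% the PU.1 letters. A match describes these letters only, and the data do not measure binding.

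Day 1 gave 25058 deposited barcodes and day 2 gave 21409. Between 5927 and 7070 cells were kept per mouse, and the members gave 872746 to 4259551 UMIs per mouse. Kept cells of the 2 days shared 75 barcodes, of which 1 was a member on both days. Late rapamycin mouse 1 stood apart from the other 5 mice in the depth and the genes of its members. It gave 4259551 member UMIs, while the other 5 mice gave 1725445 at most. Its median member had 3419.5 UMIs and 0.475% mitochondrial UMIs, against 1574 to 1937 UMIs and 0.139 to 0.162% in the other 5 mice. Results that rest on it are therefore given with and without it.

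Members carried less RNA than the other kept cells of their mouse. Their median UMI count was 0.498 times that of the rest and their median gene count 0.414 times, both lower in 6 of 6 mice. Their median mitochondrial share was 0.115 times that of the rest, also lower in 6 of 6 mice. The rule and the filter read these counts, so they have no test. Hashtag UMIs, which the marker rule did not use, stood at 0.960 times those of the rest in the median, and members were higher in 3 of 6 mice. An exact two-sided sign-flip permutation test over the 6 mice gave p = 0.656, where the smallest possible value is 0.0312.

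Members made up 7.20% of kept cells (455 of 6320, exact 95% interval 6.57 to 7.86%) in tamoxifen mouse 1 and 9.04% (536 of 5927, 8.33 to 9.80%) in tamoxifen mouse 2. With tamoxifen and rapamycin, the shares were 8.09% (504 of 6229, 7.43 to 8.80%) and 8.56% (521 of 6083, 7.87 to 9.30%). With late rapamycin, they were 15.4% (1090 of 7070, 14.6 to 16.3%) and 12.2% (740 of 6088, 11.3 to 13%). Both late rapamycin mice were above the other 4, which lay between 7.20 and 9.04%. The intervals of the 2 tamoxifen mice did not overlap. Intervals are Clopper-Pearson intervals and cover counting error only.

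The group means were 8.12% ± 1.30 (SD, n = 2) with tamoxifen, 8.33% ± 0.335 with tamoxifen and rapamycin, and 13.8% ± 2.31 with late rapamycin. Late rapamycin exceeded tamoxifen by 5.66 percentage points, 8.22 within day 1 and 3.11 within day 2. Adding rapamycin to tamoxifen moved the share by 0.207 points, with 0.892 on day 1 and -0.479 on day 2, which is within the spread of the mice. The exact two-sided permutation test between 2 and 2 mice gave p = 0.33 for late rapamycin against tamoxifen, the smallest value it can give, and p = 1 for the 2 tamoxifen treatments. Late rapamycin against tamoxifen with rapamycin differed by 5.46 points, also with an exact permutation p of 0.33.

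Without late rapamycin mouse 1, the difference from tamoxifen was 4.03 points and that from tamoxifen with rapamycin 3.83 points. On day 1, the median member had 1574, 1625.5 and 3419.5 UMIs with tamoxifen, tamoxifen with rapamycin and late rapamycin. On day 2, these medians were 1917, 1937 and 1930.5 UMIs, so member depth moved with the share on day 1 only. When 1000 UMIs were drawn at random from each cell, the shares became 5.98 and 7.56% with tamoxifen, 6.87 and 7.20% with tamoxifen and rapamycin, and 9.50 and 9.64% with late rapamycin. The late rapamycin mice were still above the other 4, and the difference from tamoxifen was 2.80 points. No cell was lost to thinning, since all had at least 1000 UMIs. Asking instead for 1000 genes and 2000 UMIs kept few members outside late rapamycin mouse 1. Its share was then 14.8%, against 1.34 to 4.77% in the other 5 mice. In the plot of shares, both versions stand side by side for each mouse.

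**Figure D1:**
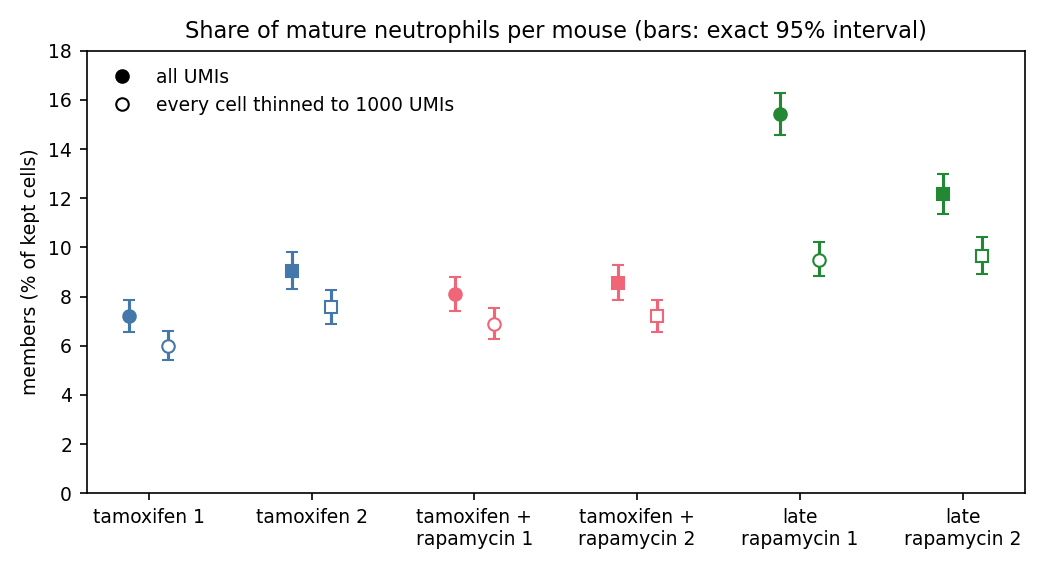
Mature neutrophils as a percentage of kept cells in each of the 6 mice, with all UMIs (filled) and with each cell thinned to 1000 UMIs (open). Circles are day 1, squares day 2, and bars exact 95% binomial intervals; the late rapamycin mice are highest in both versions, and late rapamycin 1 falls from 15.4 to 9.50% on thinning.

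Of the markers that chose the cells, Mmp9 had at least 1 UMI in 93.8 to 98.3% of members, Retnlg in 93.5 to 98.3% and Mmp8 in 89.0 to 94.8%. Ly6g, a surface protein used to sort mouse neutrophils, was seen in 47.2 to 70.4% and Fpr1, a receptor for bacterial formyl peptides, in 36.5 to 57.0%. Ly6g was lowest and Fpr1 highest in late rapamycin mouse 1. B lineage cells of the same mice were chosen by their own markers and by having fewer than 3 rule markers. That limit can lower the next values, so they are a description. Each of these genes was seen in 0 to 2.48% of these B lineage cells. Their median counts were 1348 to 2191 UMIs, against 1574 to 3419.5 in members. S100a8, which had a UMI in every member, was seen in 18.4 to 36.0% of B lineage cells, and Camp in 4.12 to 9.77%. Just outside the rule, 688 cells had 2 markers and at most 1 Elane UMI, and just inside it 1243 members had exactly 3 markers. S100a8 and S100a9 together took a median of 19.7% of UMIs in the cells with 2 markers and 20.2% in those with 3, and Camp was seen in 77.0 and 78.0% of them. The cells just outside thus carried these neutrophil genes at a similar level.

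Levels are CPM, member UMIs summed per mouse and scaled to a common library total with edgeR's TMM factors. The assay counts 1 tag per molecule at its 3′ end, so the levels were not divided by transcript length. The processing notes do not state whether intronic reads were counted, and their part in the levels was not tested. S100a9 stood at 86116 and 105823 CPM in the tamoxifen mice, 92360.0 and 108314 CPM in the tamoxifen with rapamycin mice, and 147081 and 91976 CPM in the late rapamycin mice. S100a8 stood at 60745 and 78882 CPM in the tamoxifen mice, 65414 and 80796 CPM in the tamoxifen with rapamycin mice, and 112796 and 69602 CPM in the late rapamycin mice. Both subunits of calprotectin, a calcium-binding alarmin, were highest in late rapamycin mouse 1, while late rapamycin mouse 2 lay within the range of the other treatments. The other 3 leading genes were Ngp at 24643 to 37124 CPM, Camp (cathelicidin) at 20944 to 26207 CPM and Retnlg at 6296 to 16033 CPM.

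Retnlg, a rule marker, had 11869 and 14961 CPM in the tamoxifen mice, 12865 and 16033 CPM in the tamoxifen with rapamycin mice, and 6296 and 14089.8 CPM in the late rapamycin mice. It was lowest in late rapamycin mouse 1 and did not separate the treatments otherwise. Mmp8 ranged over 1999 to 2685 CPM, Mmp9 over 1350.2 to 1588 CPM, Ly6g over 299 to 743 CPM and Fpr1 over 238 to 329 CPM. Elane, which the rule kept low, stood at 45.7, 42.1 and 36.5 CPM on day 1 and 19.4, 18 and 25.3 CPM on day 2. Values are in the order tamoxifen, tamoxifen with rapamycin and late rapamycin, and all mice of day 1 were above all mice of day 2.

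Secondary granule genes far outweighed the other granule lists. Primary granule genes (Mpo, Elane, Prtn3, Ctsg, Ms4a3 and Prss57) summed to 99.5 to 369.6 CPM. Secondary granule genes summed to 84452 to 125559 CPM, led by Ngp, Camp, Lcn2 (lipocalin-2) and Ltf (lactoferrin). Tertiary granule and secretory vesicle genes summed to 2310.3 to 2817 CPM, led by Itgam, the CD11b integrin chain, at 1014 to 1299 CPM. The genes of the NADPH oxidase, which makes superoxide, summed to 5606 to 7876 CPM.

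Other cell types were looked for with fixed marker lists, whose sums are CPM of the plain UMI totals, without TMM factors. Other types can share a droplet or give free RNA, and their part in the members' values was not tested. Of the members, 273 held at least 3 markers of some other type, 176 of them of stem and progenitor cells, 55 of plasmacytoid dendritic cells, 47 of monocytes, 43 of B lineage cells and 37 of erythroid cells. Stem and progenitor genes summed to 228 to 706 CPM in members and 1371 to 2698 CPM in the other kept cells. B lineage genes summed to 125 to 360 CPM in members and 306 to 1603 CPM in the rest, and erythroid genes to 212 to 1178 and 1172 to 2919 CPM. Monocyte genes summed to 692 to 955 CPM in members and 485 to 874 CPM in the rest. The monocyte sum was higher in members than in the rest of every mouse. The eosinophil marker Epx and the megakaryocyte marker Ppbp had no UMI in any member, while other genes of their lists were found. The 9 eosinophil genes summed to 7.75 to 57.4 CPM in members and 9.26 to 42.7 CPM in the rest. Only in late rapamycin mouse 1 was this sum lower in members (7.75 against 9.87 CPM). The 6 megakaryocyte genes summed to 4.46 to 43.5 CPM in members and 43.1 to 127 CPM in the rest. Among members, the erythroid sum was highest in late rapamycin mouse 2, and the monocyte sum in late rapamycin mouse 1.

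The nearest cells in development were taken as myelocyte-stage cells. These had at most 1 Elane UMI, fewer than 3 rule markers, and at least 2 UMIs in at least 3 of Ltf, Camp, Ngp, Lcn2 and Chil3. There were 1270 of them, 143 to 393 per mouse. Both classes were chosen from the counts compared, so the differences below are a description without a test. The genes of both gates were left out. Of 6991 other genes, 589 (8.43%) were at least 2-fold higher in mature neutrophils and 544 (7.78%) at least 2-fold lower, and the median log2 difference was -0.02. Without late rapamycin mouse 1 these 2-fold counts were 719 and 629. With no limit on size, 1695 of the 6991 genes were higher in 6 of 6 mice and 1673 lower in 6 of 6, the background for such counts below. Fold values are edgeR's fitted log2 differences ± SE, with the mouse as a block, and levels are means ± SD over 6 mice.

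Most receptors and sensors of the cell surface had higher levels in mature neutrophils. Of 25 receptor genes, 17 were at least 2-fold higher and 0 at least 2-fold lower, 20 were higher in 6 of 6 mice, and the list's median was 1.34 on the log2 scale. Cxcr2, the chemokine receptor that draws neutrophils out of the marrow, had 686 ± 163 CPM against 136 ± 102 CPM (log2 difference 2.45 ± 0.16). Csf3r, the G-CSF receptor, had 535 ± 112 CPM against 129.9 ± 17.0 CPM (2.01 ± 0.13). The C-type lectins Clec4d (5.83 ± 0.24) and Clec4e (2.61 ± 0.18), which sense fungi and dead cells, and the lipoprotein sensor Tlr2 (2.63 ± 0.30) were higher in 6 of 6 mice too. Cxcr4, the receptor that holds neutrophils in the marrow, had 101 ± 32.2 CPM against 76.0 ± 19.2 CPM and was higher in 5 of 6 mice (0.35 ± 0.13). Ltb4r1, a leukotriene B4 receptor (-0.01 ± 0.09), and Trem3 (0.01 ± 0.08) were close to equal in both classes.

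Granule genes separated by granule. Of 8 measured genes of tertiary granules and secretory vesicles, 6 were at least 2-fold higher and all 8 were higher in 6 of 6 mice, with a median of 1.64. Among them were Slc11a1, a metal ion transporter of phagosomes (3.74 ± 0.25), the sheddase Adam8 (2.89 ± 0.23), and Mmp25, a membrane-bound protease (1.27 ± 0.10). The list and these counts also hold Arg2 (5.83 ± 0.30), which is a mitochondrial arginase and not a granule protein. The median of 10 secondary granule genes outside the gates was 0.00, with 0 at least 2-fold higher and 2 at least 2-fold lower. Those 2 were Fcnb, a ficolin that binds microbial sugars (-3.39 ± 0.21), and Orm1, an acute phase protein (-1.86 ± 0.17). Of 5 primary granule genes, 2 were at least 2-fold lower, Ms4a3 (-2.76 ± 0.22) and Prss57 (-1.43 ± 0.23). In mature neutrophils they stood at 7.87 to 52.7 CPM and 5.06 to 11.8 CPM. Of the 5 genes, 2 were lower in 6 of 6 mice and 0 higher in 6 of 6. With 1 mouse left out, the log2 difference of Prtn3 ran from -1.11 to -0.603. That of Mpo went the other way, from 0.116 to 0.335.

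Cytokine genes were among the largest differences. Ccl6, a chemokine for monocytes and other leukocytes, had 388 ± 231 CPM against 7.14 ± 4.13 CPM (5.31 ± 0.38), and Il1b, the inflammatory cytokine interleukin-1 beta, had 64.9 ± 49.1 CPM against 1.28 ± 1.22 CPM (4.99 ± 0.39). Both were lowest in late rapamycin mouse 1, and Il1b was highest in late rapamycin mouse 2. Il1rn, the interleukin-1 receptor antagonist (2.43 ± 0.24), and Osm, oncostatin M (2.02 ± 0.23), were also higher in 6 of 6 mice, while Nfkbia, the inhibitor of NF-kappaB, was lower in 6 of 6 (-0.25 ± 0.09). Of 8 measured cytokine and regulator genes, 5 were at least 2-fold higher and 0 at least 2-fold lower, with a median of 1.78. Of 10 interferon response genes, 5 were at least 2-fold higher and 0 at least 2-fold lower, with Isg15, a ubiquitin-like protein, at 2.32 ± 0.25, and Irf7, a factor that drives interferon genes, at 1.88 ± 0.22.

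S100a8 and S100a9 hardly differed between the classes (-0.10 ± 0.10 and 0.06 ± 0.09). Other genes of the alarmin and stefin list did: S100a6 had 3979 ± 1572 CPM against 658 ± 489 CPM (2.74 ± 0.16) and S100a11 3315 ± 342 CPM against 1330.0 ± 114 CPM (1.31 ± 0.08). The stefins, small inhibitors of cysteine proteases, were higher too, with Stfa2l1 at 3.32 ± 0.50 and Cstdc4 at 3.33 ± 0.38. Stefin genes lie in a cluster of close copies, so the count of each copy is uncertain. In the NADPH oxidase list, Cybb, the catalytic subunit, was lower in 6 of 6 mice (-0.36 ± 0.07).

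Genes outside the gates were ranked if they changed the same way in 6 of 6 mice at an edgeR adjusted p under 0.05. That p served only to pick names. The 10 largest increases among them were Sirpb1b (6.30 ± 0.31), Gm5150 (6.01 ± 0.33), Clec4d, Arg2, Slc15a3 (5.54 ± 0.27), Ccl6, Il1b, Klra2 (4.91 ± 0.20), Pla2g7 (4.70 ± 0.26) and Ankrd33b (4.51 ± 0.18). Sirpb1b and Gm5150 are close copies in the SIRP receptor family, and Klra2 belongs to a family of lectin receptors with near-identical members, so reads could be split among copies. Slc15a3 is a transporter of small peptides in lysosomes and Pla2g7 an enzyme that inactivates platelet-activating factor. Fcnb and Stag3 led the decreases, and of the other 8, Tcf19, Ccne2, Asf1b, Rrm2, Mxd3, Foxm1, Esco2 and Hist1h2ak, most serve DNA replication or the cell cycle.

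All 12 genes of the division list were at least 2-fold lower in mature neutrophils and lower in 6 of 6 mice, with a median of -2.47. Mki67, a mark of cycling cells, had 204 ± 116 CPM against 1287 ± 144 CPM (-2.77 ± 0.16). Top2a, which untangles DNA, had 149.7 ± 67.3 CPM against 819 ± 56.9 CPM (-2.52 ± 0.15). Division genes were still found in members, most in late rapamycin mouse 1. After thinning to 1000 UMIs, 9.82% of its members held at least 2 of the 12 genes, against 1.87 to 3.65% in the other 5 mice.

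Of 14 measured transcription factors, 5 were at least 2-fold higher and 2 at least 2-fold lower. Cebpe, which drives secondary granule genes, had 219 ± 37.8 CPM against 508 ± 29.7 CPM and was lower in 6 of 6 mice (-1.22 ± 0.09). Gfi1, a repressor needed for granulocyte fate, was lower as well (-1.46 ± 0.26). Junb (2.65 ± 0.23) and Fos (2.5 ± 0.28), partners in the AP-1 factor, and Mxd1 (2.00 ± 0.14), an antagonist of Myc, were higher. Myc itself had 24.0 ± 10.4 CPM against 13.3 ± 5.15 CPM.

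Among metabolic and survival genes, the differences were smaller. Slc2a3, a glucose transporter (1.83 ± 0.11), and Slc2a1 (1.42 ± 0.24) were the 2 of 18 glycolysis and glycogen genes at least 2-fold higher. Mcl1, the survival factor on which neutrophils depend, was higher (1.56 ± 0.10), as was Txnip, a regulator of glucose uptake (1.33 ± 0.12). In the mTOR, autophagy and amino acid list, Sesn2, an inhibitor of mTORC1 (2.62 ± 0.43), the autophagy kinase Ulk1 (1.67 ± 0.27) and Map1lc3b (1.25 ± 0.11) were the 3 of 17 genes at least 2-fold higher, while Rheb, an activator of mTORC1, was lower in 6 of 6 mice (-0.69 ± 0.13). Padi4, which citrullinates histones in extracellular traps, was higher (1.23 ± 0.09). The plot of gene lists shows the receptor, tertiary granule and cytokine genes on one side and the division genes on the other.

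**Figure D2:**
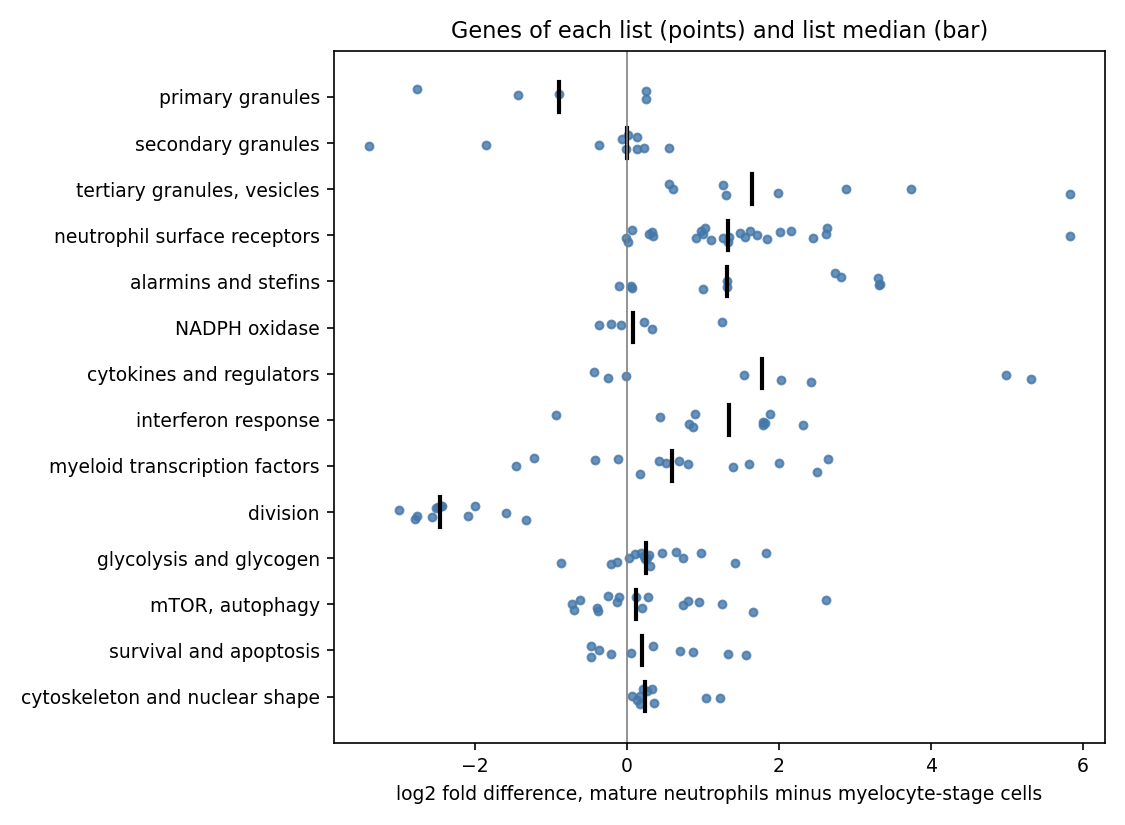
Fitted log2 difference between mature neutrophils and myelocyte-stage cells of the same 6 mice for the measured genes of each list (points) with the list's median (bar). The median is 1.34 for receptors and -2.47 for division genes; both classes were chosen from these counts, so the plot is a description.

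Ribosomal protein genes were low in mature neutrophils and in myelocyte-stage cells alike. They summed to a median over mice of 40532 CPM of plain UMI totals in mature neutrophils and 45470 CPM in myelocyte-stage cells. In Elane-high progenitor cells, with at least 5 UMIs of both Elane and Mpo, the sum was 198610 CPM. It was 146175 CPM in monocyte cells and 129214 CPM in B lineage cells. Between mature and myelocyte-stage cells, the median log2 difference of the 80 genes was -0.15, and 0 of them differed by at least 2-fold.

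Within the members, secondary granule transcripts varied widely from cell to cell. Cells were thinned to 1000 UMIs and called low with at most 10 UMIs of Ltf, Camp and Ngp together and high with at least 50. These limits were chosen after the values were seen and cut a continuous range. Low cells made up 21.1% of members in tamoxifen mouse 1, 21.2% in tamoxifen with rapamycin mouse 1 and 5.78% in late rapamycin mouse 1. On day 2, they made up 35.4, 39.9 and 42.6% in the same order of treatments. Low cells were thus more frequent in every mouse of day 2 than in any mouse of day 1. High cells made up 54.9, 56.0 and 61.9% on day 1 and 44.8, 42.4 and 40.0% on day 2. Between 23 and 39 cells per mouse lay near the lower limit and 17 to 116 near the upper one.

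**Figure D3:**
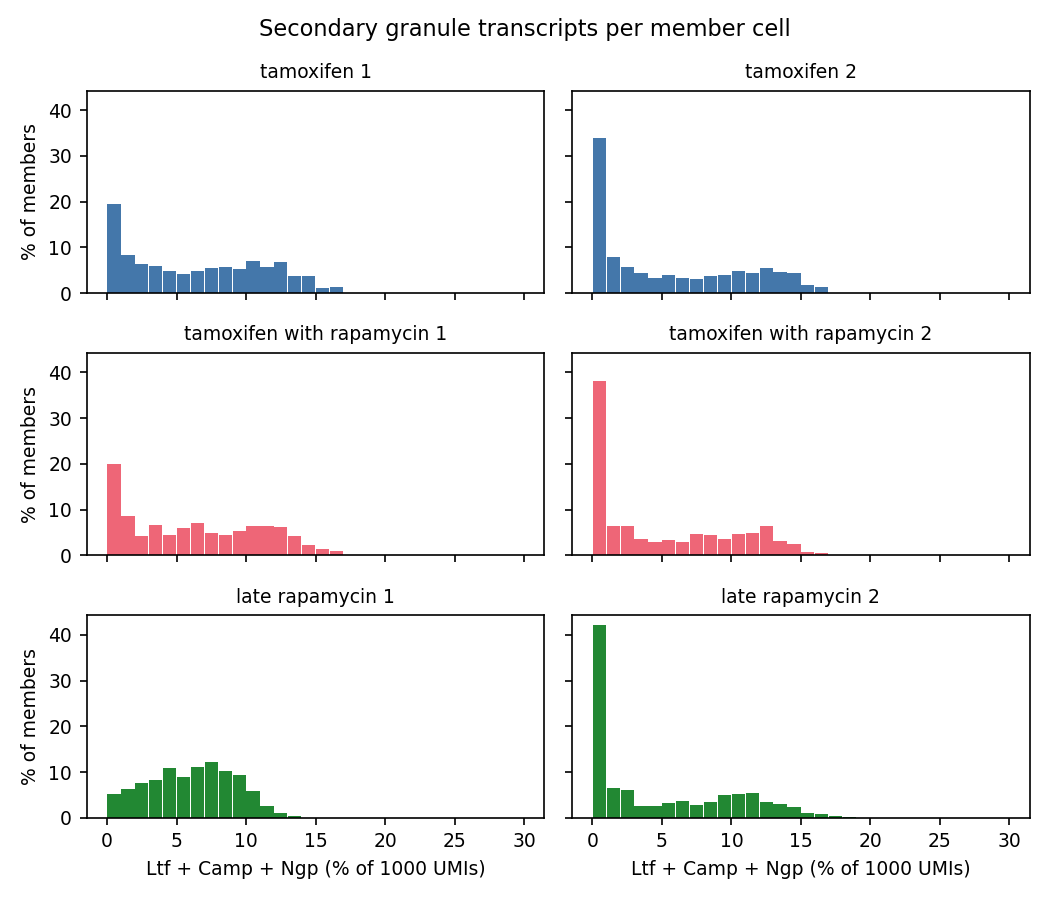
Distribution of the share of Ltf, Camp and Ngp among 1000 UMIs per member cell, in percent of members of each mouse. Cells close to 0% are frequent in the day 2 mice (right) and least frequent in late rapamycin 1, whose cells form 1 broad hump; the last bin also holds all higher shares.

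Low and high cells also differed in genes that did not set the limits. Values are mean UMIs per 1000, as medians over 6 mice, and are a description within 1 set of cells. Il1b gave 0.257 against 0.00148 in low against high cells, Ccl6 1.63 against 0.0333, Clec4d 0.694 against 0.0309, Junb 0.285 against 0.0264 and Fos 0.326 against 0.0430. Csf3r gave 1.34 against 0.317, Cxcr2 1.37 against 0.414 and Retnlg 28.5 against 7.44. All of these were higher in low cells in 6 of 6 mice. Not every receptor or cytokine gene did this: Fpr2, a formyl peptide receptor, gave 0.240 against 0.277 and was lower in low cells in 6 of 6 mice, and Il1rn gave 0.0953 against 0.0584, higher in low cells in 4 of 6.

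Several other genes showed the reverse. Chil3, a chitinase-like protein, gave 0.0518 against 3.59 in low against high cells, Lcn2 4.13 against 15.9, Cybb 0.456 against 2.55 and Cebpe 0.0201 against 0.304. S100a9 gave 89.3 against 119.6 and Anxa1, annexin A1, 1.43 against 4.80. Each was lower in low cells in 6 of 6 mice. The secondary granule gene Hp, haptoglobin, gave 2.04 against 1.83 and was higher in low cells in 4 of 6 mice. Mmp8 (2.47 against 2.70, higher in low cells in 3 of 6 mice) and Mmp9 (1.79 against 1.53, higher in low cells in 6 of 6) differed little in size, and Cxcr4 gave 0.136 against 0.110, higher in low cells in 4 of 6 mice. Low cells had median totals of 1192 to 2453 UMIs and high cells 1776 to 3630 before thinning.

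Late rapamycin mouse 1 was set against the other 5 mice gene by gene, since its members stood apart. The mouse was chosen after its values were seen, and the values have no test. Of 2009 genes with at least 100 CPM in some mouse, 75 (3.73%) were at least 2-fold above all other mice and 27 (1.34%), with at least 100 CPM in each other mouse, at least 2-fold below all. The same counts were 4 higher (0.199%) for late rapamycin mouse 2, 1 higher (0.0498%) for tamoxifen with rapamycin mouse 2, and 0 (0.0%) in every other case. With CPM of the plain UMI totals, without TMM factors, the counts for this mouse were 39 higher and 55 lower, so the balance of directions depends on the scaling.

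Interferon-induced membrane proteins, which block viruses at membranes, stood far above the other 5 mice, whose ranges are given second. These are close copies, so the split among them is uncertain. Ifitm1 had 3166 CPM against 111 to 168 CPM, Ifitm2 2610.1 CPM against 595 to 758 CPM, Ifitm3 2649 CPM against 844 to 1153 CPM and Ifitm6 7095 CPM against 1562 to 2006 CPM. Of 17 measured genes of the interferon list, 6 were above all other mice (Ifitm1, Ifitm2, Ifitm3, Slfn4, Slfn5 and Gbp2) and 1 below all. That count was not particular to this list. In the other lists, the part above all other mice ran from 3 of 11 cytokine and regulator genes to 5 of 6 NADPH oxidase genes. Slfn4 had 990.1 CPM against 383 to 534 CPM and Plscr1, an interferon-induced scramblase outside the list, 434 CPM against 76.1 to 100.3 CPM, while Isg15 had 49.7 CPM against 23.9 to 69.7 CPM, within the range of the other mice. After thinning, 66.0% of members of this mouse had an Ifitm1 UMI, against 7.69 to 10.6% in the other 5 mice, and without thinning 82.0% against 12.1 to 16.3%.

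Further genes high in late rapamycin mouse 1 were Wfdc17, a secreted protease inhibitor (1742 against 17.0 to 105 CPM), Lipg, endothelial lipase (549.7 against 0 to 10.9 CPM), and Cd38, an ectoenzyme that consumes NAD (229 against 1.12 to 12 CPM). The stefins Cstdc5 (307 against 10.9 to 49.8 CPM) and Stfa2 (172 against 7.02 to 31.8 CPM) were high as well. Prok2, a prokineticin that neutrophils release, had 492 against 15.7 to 45.5 CPM, and Lrg1, a glycoprotein of neutrophil granules, 1931 against 415 to 557 CPM. Alox5ap, which serves leukotriene synthesis, had 3033 against 947 to 1194 CPM, Cebpb, a factor of emergency granulopoiesis, 439.9 against 121 to 197 CPM, and Pim1, a kinase induced by cytokines, 376 against 77.5 to 128 CPM. Csf2rb, the common beta chain of cytokine receptors, had 368 against 97.8 to 126 CPM and Il4ra 165 against 25.3 to 33.7 CPM.

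Igkc, an immunoglobulin light chain of B cells, had 668 against 33.5 to 65.3 CPM. In B lineage cells of the same mouse, Igkc stood at 31100 CPM, against 2188 to 5973 CPM in those of the other 5 mice. These B lineage levels are CPM of the plain UMI totals, without TMM factors. The part of free RNA in the Igkc value of members was not tested.

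Genes low in this mouse included Thbs1, thrombospondin-1 (1.37 against 101 to 219.9 CPM), Sntb1, a syntrophin (4.94 against 118 to 183 CPM), and Fmnl2, a formin that elongates actin (23.3 against 336 to 439.6 CPM). Ccl6 was low too (36.2 against 259 to 620.2 CPM), as were the homotypic receptor Cd84 (107 against 363 to 459 CPM) and the adhesion molecule Alcam (51.9 against 169 to 323 CPM). Its low share of cells poor in secondary granule transcripts moved with Ccl6 and Il1b, and its part in their levels was not tested.

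Many of these genes also stood apart in other cells of this mouse. The 75 and 27 genes were picked on TMM-scaled levels, while levels in the other classes are CPM of the plain UMI totals. The shares of all genes given beside the counts use the same plain totals. In its myelocyte-stage cells, 35 of the 75 higher genes were again at least 2-fold above all other mice, against 3.29% of all 2009 genes, and 10 of the 27 lower genes at least 2-fold below, against 1.24%. In Elane-high progenitor cells the counts were 26 (4.23% of all genes) and 11 (2.19%). In monocyte cells they were 13 (2.84%) and 0 (0.548%), and in B lineage cells 8 (2.04%) and 3 (2.09%). Counted without the 2-fold limit, 70, 54, 42 and 34 of the 75 were above all other mice in these 4 classes, against 30.1, 32.3, 22.9 and 26.3% of all genes. Of the 27, 22, 20, 21 and 6 were below all, against 31.2, 44.1, 26.5 and 30.8%. Ifitm1, for example, had 778 CPM in its myelocyte-stage cells against 24.0 to 69.0 CPM in the other mice, and 1144 CPM in its monocyte cells against 52.3 to 234.5 CPM.

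**Figure D4:**
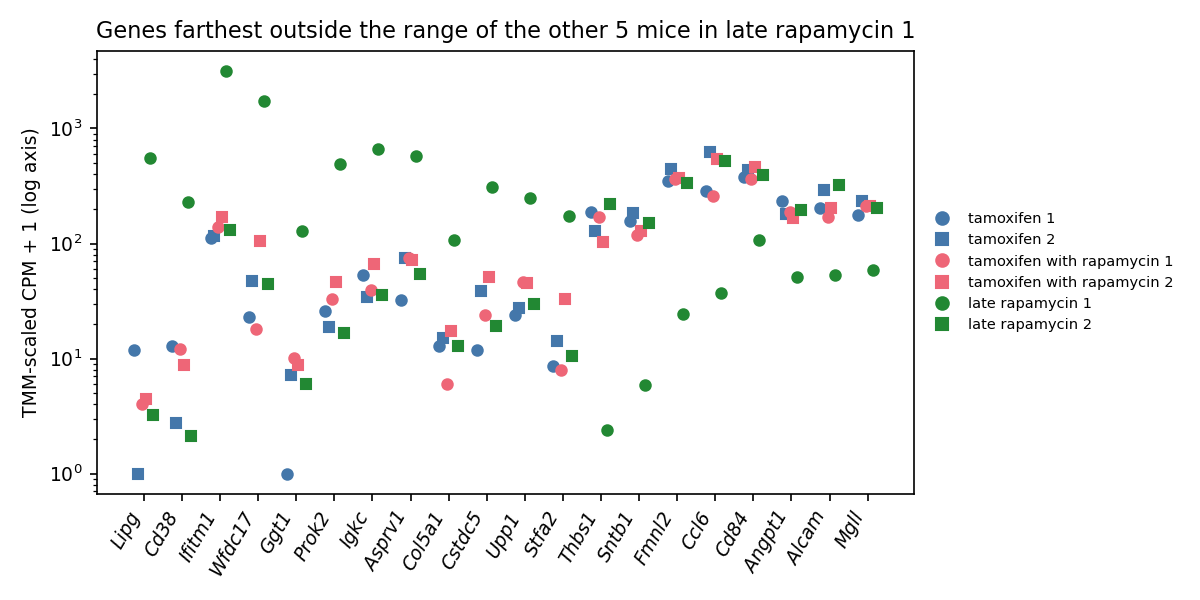
TMM-scaled CPM + 1 (log axis) in mature neutrophils of each mouse for the 12 genes farthest above and the 8 farthest below the range of the other 5 mice in late rapamycin 1. The green circle of late rapamycin 1 lies outside the other 5 points for each gene by construction, and the other late rapamycin mouse (green square) lies among the rest.

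Differences between treatments were tested on member UMIs summed per mouse, with the processing day as a block, over 8086 genes. The groups share mice between comparisons, so each is given on its own. At an adjusted p under 0.05, edgeR's quasi-likelihood test called 0 genes (0.0%) for tamoxifen with rapamycin against tamoxifen, 0 (0.0%) for late rapamycin against tamoxifen, and 0 (0.0%) for tamoxifen with rapamycin against late rapamycin. An unadjusted p under 0.05 was reached by 177, 405 and 395 genes. DESeq2 called 0, 5 and 6 genes (0.0%, 0.0618% and 0.0742%). Of the 5, 3 were higher (0.0371%) and 2 lower (0.0247%), and of the 6, 3 were higher (0.0371%) and 3 lower (0.0371%). At an unadjusted p under 0.05, DESeq2 had 45, 143 and 129 genes. The 5 were Hba-a1, Hba-a2 and Ube2c, higher, and Gm35082 and Ctnna3, lower. The 6 were Ebf1, Bach2 and H2-Aa, higher with tamoxifen and rapamycin, and Hba-a1, Hba-a2 and Oasl2, lower. With 2 mice per treatment, these counts do not show that the treatments were alike.

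The counts depended on either late rapamycin mouse. Without mouse 1, edgeR called 82 of 8663 genes (0.947%) for tamoxifen with rapamycin against tamoxifen, 51 of them higher (0.589%) and 31 lower (0.358%). Late rapamycin mouse 2 alone differed from tamoxifen in 55 genes (0.635%), 33 higher (0.381%) and 22 lower (0.254%). Between tamoxifen with rapamycin and that mouse, 87 genes (1.0%) were called, 47 higher (0.543%) and 40 lower (0.462%) with tamoxifen and rapamycin. These fits have 1 residual degree of freedom, and the lone late rapamycin mouse is assumed to vary like the others. Leaving out late rapamycin mouse 2 instead gave 84, 1707 and 1701 calls. In a fit of both tamoxifen treatments alone, added after the data were seen, edgeR called 6 genes of 7492. It compares the same mice of these treatments as the fit without late rapamycin mouse 1, so neither is separate support for the other. Pde4d (0.72), Cmah (0.84) and Ebf1 (0.99) were higher and Sntb2 (-0.85), Cyb5r4 (-0.72) and Oasl2 (-2.70) lower on the log2 scale with rapamycin, at edgeR adjusted p-values of 0.0261 to 0.0325.

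Genes with the smallest p between tamoxifen with rapamycin and tamoxifen are given as values, since none passed with all mice. Cyb5r4, a reductase of the endoplasmic reticulum, had 319.6 and 331 CPM in the tamoxifen mice, 186 and 209 CPM in the tamoxifen with rapamycin mice, and 342 and 304 CPM in the late rapamycin mice. Both tamoxifen with rapamycin mice were below the other 4, with a log2 difference of -0.72 ± 0.18 from tamoxifen (edgeR adjusted p = 1). It was called in the fit of both tamoxifen treatments alone. The fit without late rapamycin mouse 1 takes this difference from the same mice.

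Oasl2, an interferon-induced member of the oligoadenylate synthetase family, had 30.4 and 25.5 CPM in the tamoxifen mice, 4.01 and 4.29 CPM in the tamoxifen with rapamycin mice, and 27.7 and 89.4 CPM in the late rapamycin mice. It was lowest in both tamoxifen with rapamycin mice, at -2.80 ± 0.65 on the log2 scale (edgeR adjusted p = 1). It was called in the fit of both tamoxifen treatments alone. Its paralog Oasl1 had 2.17 and 17.6 CPM in the tamoxifen mice, 33.1 and 46.4 CPM in the tamoxifen with rapamycin mice, and 38.2 and 11.8 CPM in the late rapamycin mice, with a log2 difference of 1.92 ± 0.78. Cmpk2, a mitochondrial nucleotide kinase induced by interferon, had 32.6 and 35.2 CPM in the tamoxifen mice, 59.2 and 79.0 CPM in the tamoxifen with rapamycin mice, and 40.9 and 48.4 CPM in the late rapamycin mice, a difference of 1.02 ± 0.23 (edgeR adjusted p = 1 with all mice, 0.00111 without late rapamycin mouse 1 and 0.109 with both tamoxifen treatments alone).

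C130026I21Rik, a transcript without a settled role, had 67.4 and 60.8 CPM in the tamoxifen mice, 27.1 and 29.2 CPM in the tamoxifen with rapamycin mice, and 66.4 and 66.9 CPM in the late rapamycin mice. Both tamoxifen with rapamycin mice lay far below the other 4, which lay close together (log2 difference from tamoxifen -1.18 ± 0.23, edgeR adjusted p = 1 with all mice, 2.35e-04 without late rapamycin mouse 1 and 0.103 with both tamoxifen treatments alone). Stard10, a lipid transfer protein, had 31.5 and 37.0 CPM in the tamoxifen mice, 10.0 and 14.6 CPM in the tamoxifen with rapamycin mice, and 8.24 and 10.7 CPM in the late rapamycin mice and was highest in the tamoxifen mice (-1.47 ± 0.33). Hal, histidine ammonia-lyase, had 1.09 and 0.881 CPM in the tamoxifen mice, 7.02 and 8.59 CPM in the tamoxifen with rapamycin mice, and 22.2 and 19.1 CPM in the late rapamycin mice. It was lowest in both tamoxifen mice and highest in both late rapamycin mice. The plot of these genes shows each mouse.

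**Figure D5:**
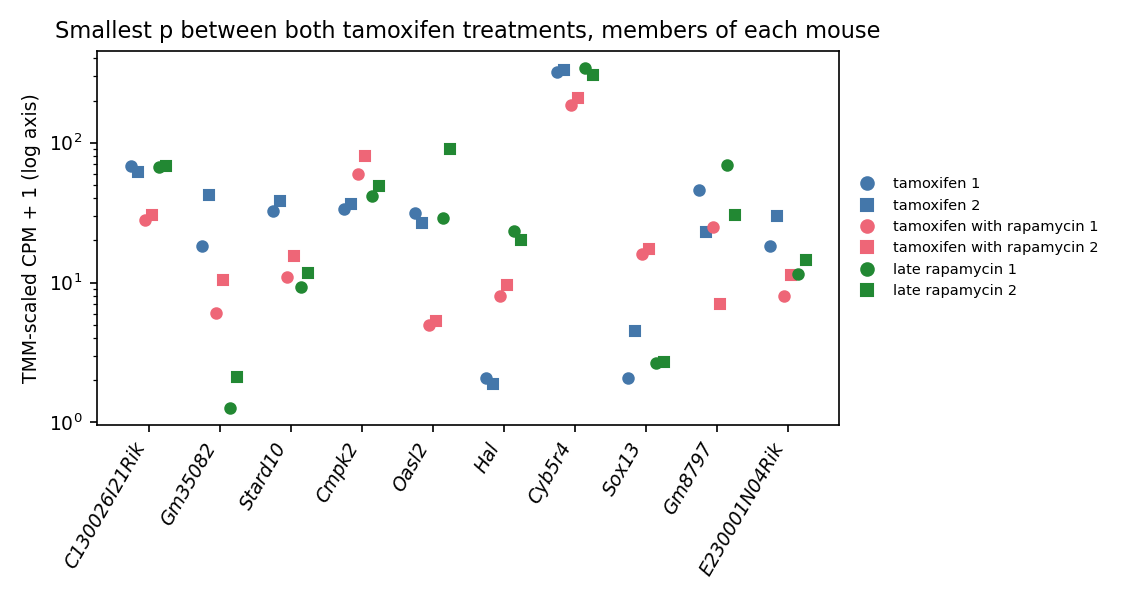
TMM-scaled CPM + 1 (log axis) in mature neutrophils of each mouse for the 10 genes with the smallest p between both tamoxifen treatments. Circles are day 1 and squares day 2; for Cyb5r4 and C130026I21Rik, the tamoxifen with rapamycin mice lie below the other 4, and no gene passed edgeR's adjusted threshold with all 6 mice.

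For late rapamycin against tamoxifen, Gm35082, a predicted gene, had the values 17.4 and 41.4 CPM in the tamoxifen mice, 5.01 and 9.45 CPM in the tamoxifen with rapamycin mice, and 0.275 and 1.12 CPM in the late rapamycin mice (-5.33 ± 0.55, edgeR adjusted p = 0.0550, DESeq2 adjusted p = 0.00384). Ctnna3, a catenin of cell contacts, had 57.6 and 74.0 CPM in the tamoxifen mice, 25.1 and 48.9 CPM in the tamoxifen with rapamycin mice, and 8.79 and 24.2 CPM in the late rapamycin mice (-2.13 ± 0.31, edgeR adjusted p = 0.266, DESeq2 adjusted p = 0.0272). Each was lower in both late rapamycin mice than in the tamoxifen mice. Values near or under 1 CPM rest on 1 or a few UMIs, so these fitted differences depend on edgeR's prior count.

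Haemoglobin genes led the same comparison in the other direction. Hba-a2 had 1.09 and 3.52 CPM in the tamoxifen mice, 1.00 and 5.15 CPM in the tamoxifen with rapamycin mice, and 10.7 and 102 CPM in the late rapamycin mice (4.53 ± 0.47, edgeR adjusted p = 0.0550), and Hbb-bs had 7.61 and 22.0 CPM in the tamoxifen mice, 14 and 12.9 CPM in the tamoxifen with rapamycin mice, and 61.0 and 455 CPM in the late rapamycin mice. The level rested on late rapamycin mouse 2, whose members also had the highest sum of 9 erythroid markers. Hba-a1 and Hba-a2 are near-identical copies, so their split is uncertain. Haemoglobin is not a neutrophil product, and the part of erythroid RNA in these values was not tested. With a top hashtag share of at least 95%, the Hbb-bs difference was -0.45. Ebf1, a B cell factor, had 89.1 and 49.3 CPM in the tamoxifen mice, 175 and 98.7 CPM in the tamoxifen with rapamycin mice, and 20.3 and 36.0 CPM in the late rapamycin mice. It was higher with tamoxifen and rapamycin than with late rapamycin (2.27 ± 0.40, edgeR adjusted p = 0.501, DESeq2 adjusted p = 0.00249). The summed B lineage genes of members were 125 to 360 CPM, and without members that held 3 markers of another type, of which Ebf1 is itself one, the difference was -0.11.

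By gene list, 0 members of any list were called by edgeR with all mice in any of the 3 comparisons, as for all genes. The median log2 difference between tamoxifen with rapamycin and tamoxifen was 0.48 for 17 interferon genes, 15 of them above 0, and 0.55 for 12 division genes, 9 of them above 0. Over all genes, the median was -0.00 and 50% were above 0. Without late rapamycin mouse 1, 3 interferon genes were called higher, Cmpk2, Rsad2 (1.10) and Oasl1 (1.95), and 1 lower, Oasl2, where 0.589% of all genes were called higher and 0.358% lower. Of the division genes, Mki67 (0.84), Top2a (0.85) and Ube2c (1.32) were then called higher. In the fit of both tamoxifen treatments alone, none of these but Oasl2 was called: the edgeR adjusted p was 0.109 for Cmpk2, Oasl1 and Ube2c, 0.351 for Rsad2, 0.117 for Mki67 and 0.103 for Top2a.

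Division genes of members summed to 496 and 322 CPM in the tamoxifen mice, 609.7 and 639.7 CPM in the tamoxifen with rapamycin mice, and 1191 and 584 CPM in the late rapamycin mice. Tamoxifen mice were lowest, and late rapamycin mouse 1 was far above the rest. Interferon genes summed to 2279 and 2609 CPM in the tamoxifen mice, 2681 and 3007 CPM in the tamoxifen with rapamycin mice, and 9871 and 3063 CPM in the late rapamycin mice. Here only late rapamycin mouse 1 stood out, through Ifitm1, Ifitm2 and Ifitm3.

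The 18 genes of the mTOR, autophagy and amino acid list had a median of -0.06 between tamoxifen with rapamycin and tamoxifen and -0.02 between late rapamycin and tamoxifen, against -0.00 and -0.01 for all genes. The 80 ribosomal protein genes had medians of -0.12 and 0.15, with 6 of 80 above 0 in the first and 69 of 80 in the second. None was called by edgeR. Their sum on day 1 was 45426 CPM with tamoxifen, 39023 with tamoxifen and rapamycin and 52805 with late rapamycin. On day 2 it was 36420, 35730.0 and 39351 CPM, the same order of treatments with these TMM-scaled levels. With CPM of the plain UMI totals, the sums were 47878, 40500 and 45150 on day 1 and 35502, 34923 and 40558 on day 2. Tamoxifen was then highest on day 1 and late rapamycin on day 2, so the order depended on the scaling. Tamoxifen with rapamycin was lowest on both days with either scaling. Without late rapamycin mouse 1, the median between late rapamycin and tamoxifen was 0.08. Txnip, from the survival list, had 287 and 292 CPM in the tamoxifen mice, 192 and 199 CPM in the tamoxifen with rapamycin mice, and 149 and 262 CPM in the late rapamycin mice, with -0.56 for tamoxifen with rapamycin against tamoxifen without late rapamycin mouse 1 (edgeR adjusted p = 0.00134, against 1 with all mice and 0.103 with both tamoxifen treatments alone).

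For late rapamycin against tamoxifen, list medians moved with late rapamycin mouse 1. The alarmin and stefin list had a median of 0.57 with all mice and -0.24 without that mouse. Secondary granule genes had 0.24 and -0.29. Interferon genes kept their sign, with 0.89 and 0.51, and division genes too, with 1.06 and 0.57. Without that mouse, edgeR called 4 secondary granule genes lower, Camp (-0.29), Ngp (-0.31), Cybb (-0.45) and Olfm4 (-0.62), and Il1b higher (0.96), where 0.254% of all genes were called lower and 0.381% higher. The share of cells poor in Ltf, Camp and Ngp was highest in late rapamycin mouse 2, at 42.6%, and its part in these differences was not tested.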

How the data were processed

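Raw UMI counts of genes and hashtags, 1 matrix per day, were used as deposited by the authors. Per the submitters' processing notes, the build was mm10 and the tool Cell Ranger 7.0.0; the file headers give 8.0.1. Cells were assigned to mice by their top hashtag. No doublet caller was run: the hashtag limit removes most doublets between mice, and those within a mouse remain. Counts were summed per mouse (and class) and tested with edgeR 4.0.16 (TMM, filterByExpr, quasi-likelihood, Benjamini-Hochberg at 0.05) in R 4.3.3, with DESeq2 1.42.0 beside it. The day was a block because the labels give it as shared by 3 mice (same-day deviations correlated at 0.19, 0.04 and 0.04). Python 3.11.15 and scipy 1.17.1 gave the intervals and permutation tests.

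Members and gene lists were chosen with earlier results of these data known. Named genes were the rule's genes, the most abundant genes, up to 10 genes per direction with the largest called change, those with the smallest p where fewer than 20 passed, and up to 4 per list. Other list genes named were chosen after their values were seen. Mx1 was not matched.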

Additional observations from a re-analysis of the deposited data

Results flagged for a closer look

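Of 26 measures of the members, each compared over the 6 mice, 7 had 1 mouse far from the others, with a gap to its nearest neighbour above Dixon's 95% critical share of the whole range for 6 values. Chance alone flags about 1 in 20, and the 6 mice span 3 treatments. All 7 concerned late rapamycin mouse 1, which was highest in each. Its median UMI count of 3419.5 was followed by 1937 in the next mouse, its median gene count of 1224 by 879.5, and its median mitochondrial share of 0.475% by 0.162%. The summed alarmin and stefin genes stood at 276554 CPM (next 200210), and the interferon genes at 9871 CPM (next 3063). The division genes stood at 1191 CPM (next 640), and the glycolysis and glycogen genes at 7810 CPM (next 5604). With CPM of the plain UMI totals, this mouse stayed highest in each of these lists, but the gaps were smaller. In the same order, the plain sums were 236463 (next 195689), 8440 (next 3157), 1018 (next 633) and 6678 (next 5539). The flag rule was applied to the TMM-scaled sums only, so the flags on lists can depend on the scaling. Depth and these levels came from the same members, and the part of depth in them was not tested. The first 3 measures were also read by the filter on cells, so they describe the kept members only.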

How the results depend on the processing

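With edgeR and all 6 mice, each treatment comparison had 0 calls, also with DESeq2 size factors and without the replicate block (0, 0 and 0 calls). DESeq2 called 5 genes for late rapamycin against tamoxifen and 6 for tamoxifen with rapamycin against late rapamycin. Without the low-count filter edgeR called 12, 178 and 150 genes, and both tamoxifen treatments alone gave 6. Leaving out 1 mouse gave 0 to 84, 0 to 1707 and 0 to 1701 calls; the extremes came without late rapamycin mouse 2.

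Leave-one-out differences of shares ran from -0.715 to 1.13 points for tamoxifen with rapamycin minus tamoxifen, turning to -0.715 without tamoxifen mouse 1 and -0.0302 without tamoxifen with rapamycin mouse 2. They ran from 4.03 to 7.30 for late rapamycin minus tamoxifen and from -7.09 to -3.83 for tamoxifen with rapamycin minus late rapamycin.

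Between mature neutrophils and myelocyte-stage cells, genes at least 2-fold higher numbered 570 to 719 and lower ones 524 to 629 with 1 mouse left out, 3451 and 2089 without the low-count filter, and 604 and 559 without the replicate block. The lower count was 846 without members holding 3 markers of another type.

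For late rapamycin mouse 1, plain UMI totals gave 39 higher and 55 lower genes, a minimum of 50 CPM 113 and 58, and a 3-fold limit 28 and 8. Hbb-bs turned to -0.45 (late rapamycin minus tamoxifen) and 0.45 (tamoxifen with rapamycin minus late rapamycin) at a hashtag share of 95%, and the latter to 0.35 without members holding 3 other-type markers, where Ebf1 turned to -0.11. The cause was not tested. Of the named genes, 73 of 73 kept their direction between classes in every alternative, and 10 of 10, 9 of 10 and 8 of 10 in the treatment comparisons. With 2 mice per treatment and 872746 to 4259551 member UMIs per mouse, a gene at 1 CPM rests on few UMIs.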

Other observations

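Some levels in the members followed the processing day. Gm42418, a predicted gene that overlaps ribosomal RNA sequence, had 13451, 12117 and 10803 CPM on day 1 and 7838, 7736 and 7558 CPM on day 2, in the order tamoxifen, tamoxifen with rapamycin and late rapamycin, and every mouse of day 1 was above every mouse of day 2. Il1b had 35.9, 29.1 and 15.4 CPM on day 1 and 67.8, 86.7 and 143 CPM on day 2, and every mouse of day 2 was above every mouse of day 1. Csf3r, the G-CSF receptor, had 444, 417 and 416 CPM on day 1 and 618, 595 and 630.4 CPM on day 2 and Ccl6 283, 259 and 36.2 CPM on day 1 and 620.2, 541 and 522 CPM on day 2, and for both every mouse of day 2 was above the mouse of the same treatment on day 1. Each treatment was present once on each day, so the day adds to the spread between the 2 mice of a treatment.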
